A study of Mus musculus with 9 samples.

Results

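The 43 genes described here encode the enzymes and scaffolds that copy chromosomal DNA and the enzymes that supply its deoxynucleotides (dNTPs). They were taken by gene name from the deposited expression table, where each of the 43 names stood on exactly 1 of the 24044 named rows kept. By role they comprised 6 subunits of the origin recognition complex, 3 genes of helicase loading, 7 helicase genes, 5 genes of helicase activation, 6 primase and polymerase genes, 6 genes of the sliding clamp and its loader, 3 of the single-strand binding protein, 2 of flap removal and ligation and 5 of dNTP supply.

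The cells were mouse embryonic stem cells at passages 20 to 23, from the established lines Oct4 GiP, E14 and v6.5. Each line was kept for 2 weeks on gelatin under each of 3 conditions, named Serum, 2i and Paused, and 1 RNA library was made per line and condition, 9 in total. Serum is the usual medium of these cells, 2i commonly denotes a medium with inhibitors of the kinases MEK and GSK3 (the labels give no composition), and Paused cells carried INK128, an inhibitor of the growth kinase mTor, at 200 nM for the whole 2 weeks. The labels do not say which medium the Paused cells shared with the other groups, name no vehicle for Serum or 2i, and name no strain. Oct4 GiP carries a reporter of the pluripotency gene Oct4, in all 3 conditions. The title of the series names a paused pluripotent state under mTor inhibition, and the comparisons here ask how the replication genes stood in that state against Serum and 2i. The 3 libraries of a condition differ by cell line, so no error or p-value below comes from repeats within a line. The main fit takes out the average level of each line. Its errors and p-values for conditions therefore reflect how unevenly a condition difference runs across the 3 lines. Those for lines reflect how unevenly a line difference runs across the 3 conditions. Only the SD of a condition's levels is the plain spread between lines.

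Eukaryotic replication starts in G1, when the origin recognition complex (Orc1 to Orc6), Cdc6 and Cdt1 load the ring-shaped Mcm2-7 helicase onto origins, a step called licensing that geminin (Gmnn) blocks after S phase has begun by holding Cdt1. At the onset of S phase Cdc45 and the GINS complex join the ring and switch it on. Polymerase alpha with its primase then lays primers, the Rfc loader opens the Pcna clamp around DNA, polymerases delta and epsilon extend, Rpa covers the single strands, and Fen1 and Lig1 finish the lagging strand. The dNTPs come from ribonucleotide reductase (Rrm1 and Rrm2), thymidine kinase (Tk1), thymidylate synthase (Tyms) and the dUTPase Dut. Mouse embryonic stem cells cycle fast with a short G1, and many of these genes are textbook targets of E2F transcription factors at the G1 to S transition.

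Because E2F is the classical regulator of these genes, their promoters were read for its consensus, spelled out as the words TTTCCCGC, TTTCGCGC, TTTGCCGC and TTTGGCGC on either strand in the 250 bases before the RefSeq start (GRCm38.p6). Of the 43 genes, 35 had an entry in the RefSeq promoter table. At least 1 word stood in the windows of 9 of the 35 (25.7%), against 517 of all 27025 genes (1.91%). The 9 were Orc1, Orc3, Cdc6, Mcm5, Mcm6, Mcm7, Gins3, Pola1 and Rfc3. None of the 5 dNTP genes had one, which says only that these letters are not in those windows. The cell cycle homology words TTTGAA and TTCGAA stood in 6 of the 35 (17.1%), against 17.4% of all genes. The following 6 stretches are shown 5′ to 3′ because the results turn on their genes. Tk1 and Rrm2 had the widest ranges over the 9 libraries. Cdc6 and Pola1 are a licensing and a polymerase gene that differed between Paused and Serum in opposite directions in the main fit. Mcm5 and Mcm6 belong to the helicase, which moved little in that fit. Capitals mark E2F words. In Mcm5 and in the first run of Mcm6 a forward and a reverse word overlap and form 1 run, and bases that the GENCODE annotation (M21) places in an exon are left out. The Cdc6 stretch lies in an intron of its GENCODE gene model, which begins further upstream.
Tk1 promoter, chr11:117826093-117826264, minus strand: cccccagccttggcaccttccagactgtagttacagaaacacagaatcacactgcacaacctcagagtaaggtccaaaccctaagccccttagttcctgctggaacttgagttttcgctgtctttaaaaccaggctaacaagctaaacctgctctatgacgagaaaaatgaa
Rrm2 promoter, chr12:24708004-24708240, plus strand: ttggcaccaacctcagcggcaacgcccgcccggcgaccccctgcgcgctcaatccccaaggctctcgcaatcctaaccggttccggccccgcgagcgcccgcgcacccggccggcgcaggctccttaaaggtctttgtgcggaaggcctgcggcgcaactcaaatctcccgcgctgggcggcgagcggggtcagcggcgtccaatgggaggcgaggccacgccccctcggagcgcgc
Cdc6 promoter, chr11:98907982-98908150, plus strand: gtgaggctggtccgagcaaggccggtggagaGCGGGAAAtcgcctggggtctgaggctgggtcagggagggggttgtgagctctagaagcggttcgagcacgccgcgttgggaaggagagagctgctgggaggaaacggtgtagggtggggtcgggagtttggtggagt
Pola1 promoter, chrX:93632156-93632405, minus strand: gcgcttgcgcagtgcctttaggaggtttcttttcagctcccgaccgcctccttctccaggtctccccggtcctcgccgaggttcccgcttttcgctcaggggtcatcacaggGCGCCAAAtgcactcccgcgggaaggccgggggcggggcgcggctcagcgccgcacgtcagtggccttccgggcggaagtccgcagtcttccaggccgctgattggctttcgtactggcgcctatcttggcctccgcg
Mcm5 promoter, chr8:75109259-75109508, plus strand: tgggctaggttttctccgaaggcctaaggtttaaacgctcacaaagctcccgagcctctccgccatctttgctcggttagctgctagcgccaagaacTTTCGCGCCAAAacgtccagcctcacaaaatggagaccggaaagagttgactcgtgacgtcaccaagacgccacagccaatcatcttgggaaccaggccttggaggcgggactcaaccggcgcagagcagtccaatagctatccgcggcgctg
Mcm6 promoter, chr1:128359706-128359955, minus strand: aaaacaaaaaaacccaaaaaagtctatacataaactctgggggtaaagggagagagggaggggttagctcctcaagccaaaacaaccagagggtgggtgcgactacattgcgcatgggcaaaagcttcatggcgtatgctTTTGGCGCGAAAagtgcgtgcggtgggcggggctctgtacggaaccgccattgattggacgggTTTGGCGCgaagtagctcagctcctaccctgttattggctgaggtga

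An E2F word was present in 2 of the 14 genes with an entry that differed in at least 1 of the 3 comparisons below, and in 7 of the 21 that differed in none. A match is a description of letters and not evidence of binding.

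All 43 genes were expressed in every library, from 6.89 to 437 FPKM (fragments per kilobase of transcript scaled to the library's fragments, a level per length), and all 43 passed the filter on low values. Averaged over the 9 libraries, Pcna stood highest at 392 FPKM, followed by Mcm5 (269), Mcm7 (258), Mcm2 (222) and Mcm3 (203), and 11 genes averaged 100 FPKM or more. Orc4 (9.20), Orc3 (9.63) and Gins3 (9.75) stood lowest. The levels were also even. The ratio of a gene's highest to its lowest library ran from 1.21 for Mcm2 to 4.90 for Tk1, with a median of 1.53, and was under 2 for 36 of the 43. The 7 others were Tk1, Rrm2 (2.68), Rpa3 (2.19), Gins3 (2.15), Dut (2.11), Rfc4 (2.08) and Orc6 (2.06). The median SD over the 9 libraries was 0.20 on the log2 scale, against 0.32 for all 12711 genes tested.

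Conditions were compared with limma on log2(FPKM + 1) and a term for the line, and Benjamini-Hochberg adjustment ran over all 12711 genes with a threshold of 0.05. Between Paused and Serum, 2 of the 43 rose (Orc5 and Pola1), beside 7.64% of all genes tested, and 7 fell (Cdc6, Gins1, Rfc2, Tk1, Rrm2, Tyms and Dut), beside 10.5% of all genes. Between 2i and Serum, 1 rose (Tk1), beside 21.7%, and 3 fell (Orc2, Rfc4 and Rfc5), beside 18.9%. Between Paused and 2i, 6 were higher in Paused (Orc2, Orc5, Pold1, Pole, Rfc4 and Rfc5), beside 19.8%, and 10 were lower (Gins1, Prim2, Rfc2, Rpa1, Rpa3, Fen1, Tk1, Rrm2, Tyms and Dut), beside 24.6%. In the comparison of 2i with Serum the 4 of 43 called thus lay under the background of 40.6%, while the 9 of 43 in Paused against Serum lay near its 18.2% and the 16 of 43 in Paused against 2i near its 44.4%. The 3 comparisons share libraries and are given side by side. Relative to the median gene of each library, the split between 2i and Serum became 1 higher and 9 lower, and that between Paused and 2i became 9 higher and 8 lower. The shares of all genes above are those of the fit without this centring, and those of the centred fit are not given.

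The median log2 fold change of the 43 was -0.15 in Paused against Serum (all genes -0.01), -0.06 in 2i against Serum (all genes 0.02) and -0.13 in Paused against 2i (all genes -0.03). The 3 libraries of Paused lay wholly below those of Serum for 14 of the 43 (21.3% of all genes) and wholly above for 2 (17.3%). For 2i against Serum these counts were 7 lower (22.4%) and 6 higher (25.6%), and for Paused against 2i they were 10 lower (28.3%) and 8 higher (23.6%). In Paused against Serum, 32 of the 43 (74.4%) had the same sign in all 3 lines, beside 62.0% of all genes; in 2i against Serum this share was 53.5% (all genes 64.2%) and in Paused against 2i 53.5% (all genes 68.5%). A 95% interval that lay wholly within 0.5 log2 units of no change was found for 26 of the 43 (60.5%, all genes 33.1%) in Paused against Serum, for 32 (74.4%, all genes 28.8%) in 2i against Serum and for 22 (51.2%, all genes 26.8%) in Paused against 2i. In all, 18 genes were called in at least 1 comparison and 25 in none. The share of all genes called in at least 1 was not computed. By limma's F test over the 3 conditions, 16 of the 43 were called, beside 54.8% of all genes.

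**Figure D1:**
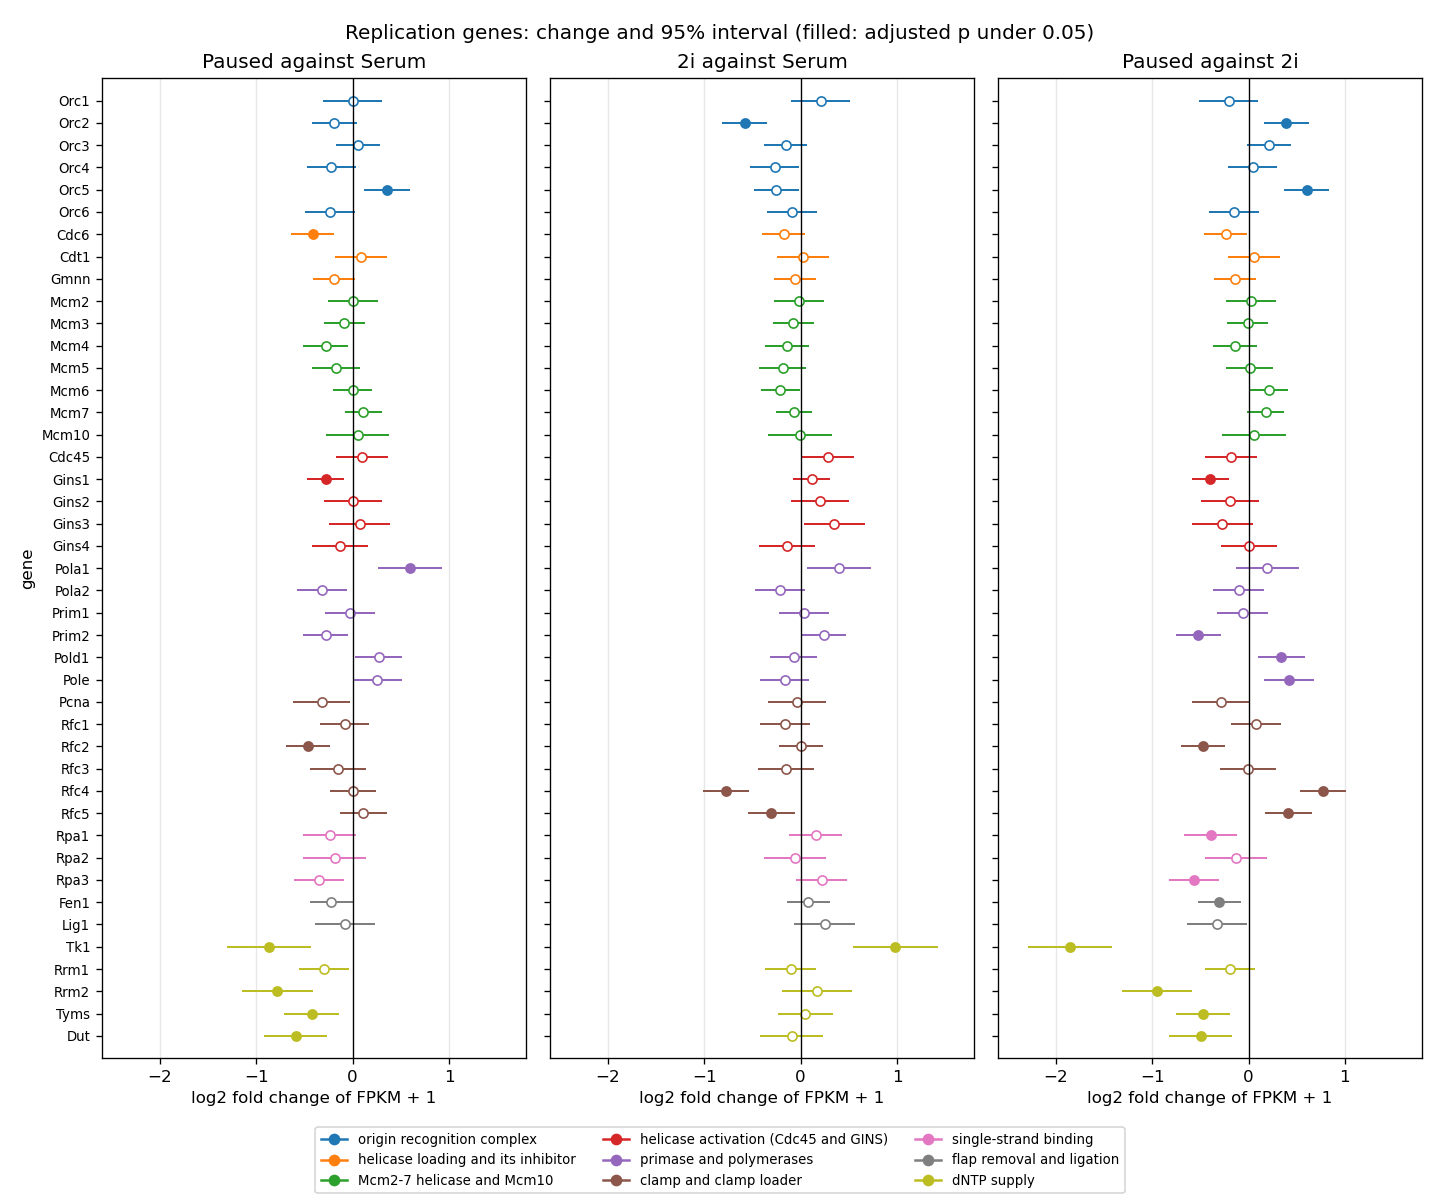
Log2 fold change of FPKM + 1 (x axis) of the 43 genes (y axis, coloured by role) in the 3 comparisons, with 95% intervals from limma; filled points have an adjusted p under 0.05. The 5 dNTP genes lie left of 0 in both panels with Paused, from -0.30 to -0.86 against Serum, while the 7 helicase genes stay within -0.28 and 0.11 there.

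The calls between Paused and Serum were the least firm. None of the 9 calls was kept in every fit that left out 1 library, and leaving out any 1 of the 3 Serum or the 3 Paused libraries ended all 7 lower calls. The same fits reduced the calls over the whole table from 2311 genes to between 12 and 787 without a Serum library and to between 16 and 38 without a Paused library. In 2i against Serum, 3 of 4 calls (Orc2, Rfc4 and Tk1) were kept without any single library, and in Paused against 2i 8 of 16 were (Orc5, Gins1, Prim2, Rfc2, Rfc4, Rpa3, Tk1 and Rrm2).

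**Figure D2:**
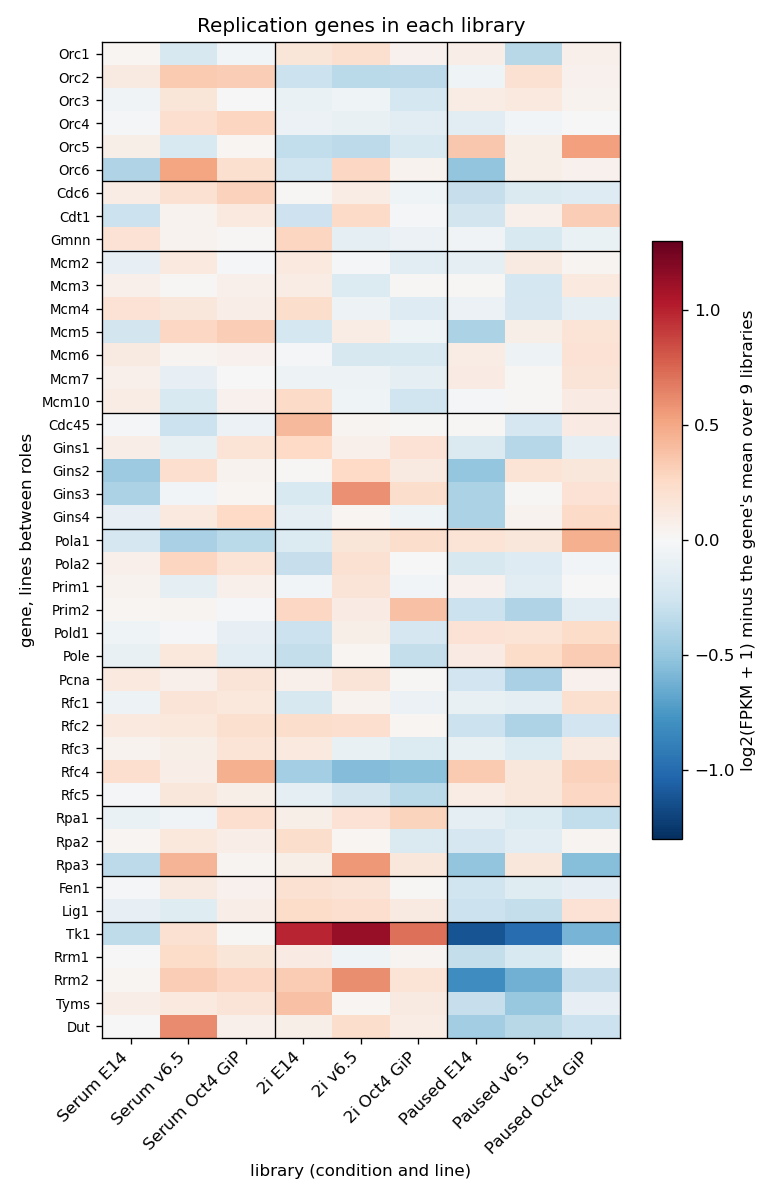
Each gene's log2(FPKM + 1) minus its own mean over the 9 libraries (colour), with genes in rows by role and libraries in columns by condition and line. Tk1 is darkest on both sides, high in the 3 libraries of 2i and low in the 3 of Paused, and Orc6, Mcm5 and Gins3 are below their own means in E14 in each condition.

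The dNTP enzymes made up the role with the most lower calls in Paused. Against Serum, 4 of the 5 fell (Tk1, Rrm2, Dut and Tyms) beside 10.5% of all genes, and the median log2 change of the 5 was -0.59; by line it was -0.45 (E14), -0.95 (v6.5) and -0.345 (Oct4 GiP). Against 2i the same 4 were lower in Paused, beside 24.6% of all genes, with a median of -0.50. Between 2i and Serum the median was 0.05 and only Tk1 passed the test. On bulk RNA, fewer cells in S phase and less of these messages per cell cannot be told apart.

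Tk1, the salvage kinase that phosphorylates thymidine and is a textbook S phase gene (chr11:117815526-117826092, mm10), stood at 43.96, 63.9 and 56.1 FPKM in Serum (E14, then v6.5, then Oct4 GiP, the order of all values below). It stood at 111, 123 and 92.1 FPKM in 2i and at 25.03, 27.5 and 36.3 FPKM in Paused. The 3 conditions did not overlap, 2i being highest and Paused lowest in every line. Mean levels were 54.7 ± 10.1 (SD, n = 3), 109 ± 15.5 and 29.6 ± 5.92 FPKM, so that the mean in 2i was 1.99 times that in Serum and the mean in Paused 0.541 times it. The log2 change was -0.86 ± 0.18 (SE; limma, adjusted p = 0.0258) in Paused against Serum, 0.98 ± 0.18 (adjusted p = 0.00730) in 2i against Serum and -1.85 ± 0.18 (adjusted p = 0.000993) in Paused against 2i, the widest change among the 43 in each comparison. Leaving out single libraries kept the first between -1.06 and -0.72 with an adjusted p of up to 0.108, lost without any 1 Serum or Paused library.

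Rrm2, the small subunit of ribonucleotide reductase and the one whose supply limits the enzyme in S phase (chr12:24708241-24714146), stood at 131, 162 and 155 FPKM in Serum, at 162, 196 and 146 in 2i and at 73.2, 83.0 and 105 in Paused. All 3 Paused libraries lay below the other 6, while Serum and 2i overlapped. It fell by 0.78 ± 0.15 on the log2 scale from Serum to Paused (limma, adjusted p = 0.0223) and was lower than in 2i by -0.95 ± 0.15 (adjusted p = 0.00385). Without any 1 Serum or Paused library the first call was lost, with an adjusted p of up to 0.0996.

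Rrm1, the large subunit, moved less than its partner. Its levels were 69.0, 81.3 and 76.7 FPKM in Serum, 73.8, 66.2 and 70.6 in 2i and 55.3, 59.8 and 69.0 in Paused. The Oct4 GiP library of Paused reached the E14 library of Serum, and the log2 change of -0.30 ± 0.10 did not pass the test (limma, adjusted p = 0.0899). The ratio of Rrm2 to Rrm1, both in FPKM, was 1.97 ± 0.068 in Serum, 2.41 ± 0.48 in 2i and 1.41 ± 0.10 in Paused, where its highest library (1.52) lay below the lowest of Serum (1.89) and of 2i (2.07).

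Dut, which removes dUTP and makes the precursor of dTTP (chr2:125247190-125258608), stood at 83.0, 128 and 87.5 FPKM in Serum, 88.0, 97.7 and 89.3 in 2i and 60.6, 64.6 and 68.7 in Paused. The Paused libraries again lay below the other 6, and the v6.5 library of Serum stood well above its 2 partners. Dut fell by 0.59 ± 0.13 from Serum to Paused (limma, adjusted p = 0.0313) and was lower than in 2i by -0.50 ± 0.13 (adjusted p = 0.0236). Leaving out the E14 or Oct4 GiP library of 2i ended the call against 2i. So did leaving out the E14 or v6.5 library of Paused (limma, adjusted p of up to 0.0921). The call against Serum was lost without any 1 Serum or Paused library or the Oct4 GiP library of 2i, with an adjusted p of up to 0.110 and a log2 change between -0.68 and -0.42, and in a fit of the 6 libraries of Serum and Paused alone (adjusted p = 0.0556) and without the filter (0.0512).

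Tyms, which methylates dUMP to dTMP (chr5:30058202-30073617), stood at 76.7, 78.8 and 80.9 FPKM in Serum, 94.2, 73.3 and 78.4 in 2i and 58.5, 51.1 and 66.7 in Paused. It was lowest in Paused in every line, by -0.42 ± 0.11 against Serum (limma, adjusted p = 0.0481) and by -0.47 ± 0.11 against 2i (adjusted p = 0.0168). The first call lay just inside the threshold: it was lost in 8 of the 9 fits that left out 1 library, all but that without the E14 library of 2i (adjusted p of up to 0.17), without the line as a block (adjusted p = 0.0589), without the filter (0.0700) and without limma's trend (0.0593). The call against 2i was lost without the E14 or the v6.5 library of Paused (limma, adjusted p of up to 0.0757). A processed copy, Tyms-ps, is annotated, and how the sources used here treat fragments matching both was not given. The ratio of Tk1 to Tyms, salvage to de novo thymidylate synthesis, was 0.693 ± 0.12 in Serum, 1.34 ± 0.29 in 2i and 0.503 ± 0.065 in Paused.

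**Figure D3:**
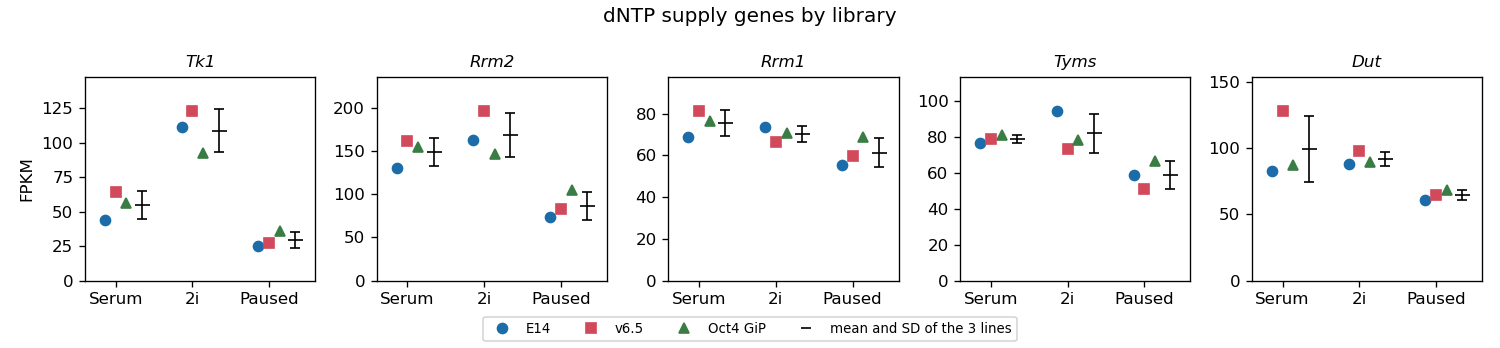
FPKM (y axis, from 0) of the 5 dNTP genes in the 9 libraries by condition (x axis), with symbols for the 3 lines and the mean and SD of the 3 lines beside them. In Paused all 3 libraries of Tk1, Rrm2, Tyms and Dut lie below all 6 others, which is not so for Rrm1.

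Among the 6 subunits of the origin recognition complex, Orc2 and Orc5 carried the differences and the other 4 were called in no comparison. Orc2, a core subunit (chr1:58462771-58505109), stood at 39.1, 45.8 and 45.2 FPKM in Serum, 29.5, 28.1 and 28.2 in 2i and 34.6, 41.4 and 37.6 in Paused. The 2i libraries lay below the other 6. Orc2 fell by 0.58 ± 0.09 from Serum to 2i (limma, adjusted p = 0.00497) and was higher in Paused than in 2i by 0.39 ± 0.09 (adjusted p = 0.0160), a difference that turned to -0.16 on the authors' second scale described below. Without the v6.5 or the Oct4 GiP library of 2i or of Paused that second call was lost, with an adjusted p of up to 0.0743 and a log2 change between 0.32 and 0.48, as it was in the 6 libraries of those conditions alone (0.0508).

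Orc5 (chr5:22486485-22550429), an ATP-binding subunit, stood at 40.7, 33.5 and 39.2 FPKM in Serum, 30.8, 30.4 and 33.5 in 2i and 49.5, 40.6 and 56.1 in Paused. Paused was highest in every line, though the v6.5 library of Paused fell just short of the E14 library of Serum. It was higher in Paused than in 2i by 0.60 ± 0.09 (limma, adjusted p = 0.00399), a call lost on the second scale (0.05, adjusted p = 0.737). It was higher than in Serum by 0.35 ± 0.09 (adjusted p = 0.0486), a change that turned to -0.57 on the second scale. That last call was lost in 7 of the 9 fits that left out 1 library, all but those without the E14 or the v6.5 library of 2i (adjusted p of up to 0.189), without the line as a block (adjusted p = 0.112), without the filter (0.0615) and without limma's trend (0.0605). The sum of Orc1 to Orc6 ran from 169 to 199 FPKM in Serum, 156 to 174 in 2i and 173 to 199 in Paused.

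Cdc6, the ATPase that completes the helicase loader (chr11:98907801-98923940), was the licensing factor that fell in Paused. Its levels were 20.5, 22.0 and 23.7 FPKM in Serum, 19.3, 20.5 and 18.3 in 2i and 15.3, 16.6 and 16.9 in Paused. The Paused libraries lay below the other 6, with a log2 change of -0.41 ± 0.09 against Serum (limma, adjusted p = 0.0285) and -0.24 ± 0.09 against 2i (adjusted p = 0.0707). The call against Serum was lost without any 1 Serum or Paused library, with an adjusted p of up to 0.131.

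Cdt1, the partner that brings the helicase to the origin, did not follow Cdc6. It stood at 110.5, 138 and 146 FPKM in Serum, 111, 160.1 and 133 in 2i and 113, 141 and 168 in Paused, lowest in E14 throughout, and its change from Serum to Paused was 0.09 (95% interval -0.17 to 0.35). Gmnn stood at 112, 101 and 98.8 FPKM in Serum, 119, 90.0 and 92.3 in 2i and 94.4, 85.2 and 91.9 in Paused. The Paused libraries of Gmnn lay below those of Serum, and the difference of -0.19 ± 0.09 did not pass the test (limma, adjusted p = 0.162). The ratio of Cdt1 to Gmnn was 1.28 ± 0.26 in Serum, 1.39 ± 0.42 in 2i and 1.56 ± 0.32 in Paused, with ranges that overlap.

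On FPKM the helicase was the most even role. None of Mcm2 to Mcm7 or Mcm10 was called in any of the 3 comparisons, beside 18.2%, 40.6% and 44.4% of all genes, and the 95% interval of all 7 lay within 0.5 log2 units of no change in each (limma; 1 of the 7 had an unadjusted p under 0.05 in each comparison). Relative to the median gene, Mcm5 and Mcm6 were called lower in 2i than in Serum (-0.29 and -0.32) and Mcm6 and Mcm7 higher in Paused than in 2i (0.29 and 0.26). The shares of all genes just given do not belong to that centred fit. On the second scale all 7 were lower in Paused than in Serum, beside 76.9% of all genes. There 5 were lower in 2i than in Serum (35.7% of all genes) and 5 in Paused than in 2i (54.5%). Mcm2 stood at 206, 242 and 218 FPKM in Serum, 241, 219 and 199.8 in 2i and 203, 240.3 and 226 in Paused, and its change from Serum to Paused was 0.01 (95% interval -0.24 to 0.26). No condition stood apart. Mcm7 stood at 270.2, 239 and 256 FPKM in Serum, 246, 246 and 236 in 2i and 276, 260.1 and 289.9 in Paused, the Paused libraries lying above those of 2i by 0.18 ± 0.08 (limma, adjusted p = 0.0963).

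Mcm4 had the largest difference of the 7 between Paused and Serum, with 91.9, 89.6 and 85.7 FPKM in Serum, 95.04, 77.2 and 71.8 in 2i and 76.7, 69.2 and 73.9 in Paused. Its change of -0.28 ± 0.09 missed the threshold (limma, adjusted p = 0.0793), although all 3 Paused libraries lay below Serum. Mcm6 had the largest difference of the 7 between 2i and either other condition, with 148, 139 and 141 FPKM in Serum, 134, 118 and 119 in 2i and 145, 129.8 and 154 in Paused. It was lower in 2i than in Serum in every line, by -0.21 ± 0.08 (adjusted p = 0.0819). The sum of Mcm2 to Mcm7 was 1154 to 1244 FPKM in Serum, 1085 to 1159 in 2i and 1104 to 1265 in Paused. The 6 subunits form a ring in equal numbers, but their messages were not equal: Mcm4 gave 5.84% to 8.20% of the sum over the 9 libraries and was the lowest of the 6 in each, while Mcm5 gave 18.0% to 26.6% and Mcm7 gave 21.1% to 23.5% on average per condition.

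Of the genes that activate the helicase, only Gins1, a GINS subunit (chr2:150905400-150931280), passed a test. It stood at 49.4, 43.4 and 52.8 FPKM in Serum, 55.9, 48.8 and 53.0 in 2i and 40.7, 35.7 and 42.8 in Paused. The Paused libraries lay below the other 6, with -0.28 ± 0.07 against Serum (limma, adjusted p = 0.0461) and -0.40 ± 0.07 against 2i (adjusted p = 0.00714). The call against Serum was lost in 8 of the 9 fits that left out 1 library, all but that without the E14 library of 2i (adjusted p of up to 0.188), without the line as a block (adjusted p = 0.123) and without limma's trend (0.0650). The other 3 GINS subunits and Cdc45 ran between -0.13 and 0.10 in Paused against Serum. Gins3 had the widest difference of the 5 between 2i and Serum, at 6.89, 9.26 and 9.70 FPKM in Serum, 8.19, 14.8 and 11.3 in 2i and 6.92, 9.64 and 11.0 in Paused. In every line it was higher in 2i than in Serum, by 0.35 ± 0.13, which missed the threshold (limma, adjusted p = 0.0689).

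The primase and polymerase subunits did not move as one. Pola1, the catalytic subunit of polymerase alpha (chrX:93304767-93632155), stood at 20.5, 17.7 and 18.6 FPKM in Serum, 21.0, 26.9 and 28.2 in 2i and 27.3, 26.7 and 33.5 in Paused. All Serum libraries lay below the other 6. From Serum to Paused it rose by 0.59 ± 0.13 (limma, adjusted p = 0.0310), a mean 1.54 times as high, and this turned to -0.31 on the second scale. The rise from Serum to 2i was 0.40 ± 0.13 (adjusted p = 0.0524), just outside the threshold. The call in Paused was lost without the v6.5 or Oct4 GiP library of Serum, the Oct4 GiP library of 2i or any 1 Paused library, with an adjusted p of up to 0.1304.

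None of the partners of Pola1 passed the test in Paused against Serum. Prim2, the large primase subunit (chr1:33453810-33669795), stood at 25.6, 25.9 and 24.9 FPKM in Serum, 30.7, 27.1 and 33.2 in 2i and 20.6, 19.0 and 22.9 in Paused. Its conditions did not overlap, 2i being highest and Paused lowest, and the difference between those was -0.52 ± 0.09 (limma, adjusted p = 0.00619). Against Serum, Prim2 was at -0.28 ± 0.09 in Paused (adjusted p = 0.0806). Pola2 was at -0.32 ± 0.10 in Paused against Serum (adjusted p = 0.0798), and Prim1, the small primase subunit, at -0.03 (95% interval -0.28 to 0.22).

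On FPKM, the catalytic subunits of both replicative polymerases were highest in Paused. Pold1, of polymerase delta, stood at 69.6, 71.1 and 67.4 FPKM in Serum, 59.8, 76.7 and 62.3 in 2i and 83.1, 82.1 and 86.1 in Paused. Pole, of polymerase epsilon, stood at 28.9, 34.2 and 28.1 FPKM in Serum, 24.8, 31.5 and 24.8 in 2i and 33.3, 36.8 and 39.3 in Paused. The Paused libraries of Pold1 lay above the other 6, and those of Pole above 2i but not above the v6.5 library of Serum. Against 2i, Pold1 was higher by 0.34 ± 0.10 (limma, adjusted p = 0.0298) and Pole by 0.42 ± 0.10 (adjusted p = 0.0176), which turned to -0.22 and -0.12 on the second scale. The call on Pold1 was lost without the Oct4 GiP library of Serum or the E14 or Oct4 GiP library of 2i or of Paused (adjusted p of up to 0.116), and that on Pole without the Oct4 GiP library of 2i or the E14 or Oct4 GiP library of Paused (up to 0.0739). In the 6 libraries of Paused and 2i alone neither was called (adjusted p = 0.0818 and 0.0543). Against Serum neither passed the test on FPKM (adjusted p = 0.0992 and 0.127). On the second scale both were lower in Paused than in Serum, each by -0.66 (limma, adjusted p = 0.00224 for Pold1 and 0.00468 for Pole).

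The subunits of the clamp loader, which bind one another in a single ring, split in 2 directions. Rfc4 (chr16:23113943-23127737) stood at 44.2, 40.2 and 52.5 FPKM in Serum, 27.5, 25.3 and 25.9 in 2i and 48.3, 42.0 and 46.8 in Paused. All 2i libraries lay far below the other 6, and the mean in 2i was 0.575 times that in Serum. The log2 change was -0.77 ± 0.09 in 2i against Serum (limma, adjusted p = 0.00244), 0.78 ± 0.09 in Paused against 2i (adjusted p = 0.00185) and 0.01 in Paused against Serum (95% interval -0.22 to 0.24). Both calls were kept without any single library, and that in Paused against 2i was lost on the second scale (0.23, adjusted p = 0.179). Rfc4 shares exon bases with Eif4a2, a translation factor gene on the opposite strand, and whether fragments were counted by strand was not given in the sources used here.

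Rfc5 (chr5:117378103-117389047) stood at 120.3, 135 and 129 FPKM in Serum, 112, 103 and 95.9 in 2i and 131, 136 and 148 in Paused. It too was lowest in 2i, by -0.30 ± 0.10 against Serum (limma, adjusted p = 0.0466) and with Paused higher by 0.41 ± 0.10 (adjusted p = 0.0156), which turned to -0.15 on the second scale. The call against Serum was lost in 8 of the 9 fits that left out 1 library, all but that without the E14 library of 2i (adjusted p of up to 0.168), in the 6 libraries of 2i and Serum alone (0.109), without the filter (0.0566) and without limma's trend (0.0650). The call against 2i was lost without the v6.5 or Oct4 GiP library of 2i or the Oct4 GiP library of Paused (adjusted p of up to 0.0673).

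Rfc2 (chr5:134581366-134601805) showed the other pattern, with 85.4, 85.9 and 90.4 FPKM in Serum, 91.7, 91.0 and 79.8 in 2i and 64.2, 58.9 and 65.8 in Paused. Serum and 2i overlapped and Paused lay below both. The log2 change was -0.46 ± 0.09 in Paused against Serum (limma, adjusted p = 0.0231) and -0.47 ± 0.09 against 2i (adjusted p = 0.00803). The call against Serum was lost without any 1 Serum or Paused library (adjusted p of up to 0.111). Rfc1, the large subunit, and Rfc3 were called in no comparison.

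Pcna, the sliding clamp, stood at 425, 407 and 436 FPKM in Serum, 408, 437 and 394 in 2i and 328, 290.3 and 405 in Paused. The Paused libraries lay below those of Serum, the Oct4 GiP library only just. Its change of -0.32 ± 0.12 in Paused against Serum did not pass the test (limma, adjusted p = 0.107; 95% interval -0.61 to -0.03). Pcna-ps1 and Pcna-ps2, copies of the gene, are annotated, so its level is uncertain to the extent that their fragments were shared.

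**Figure D4:**
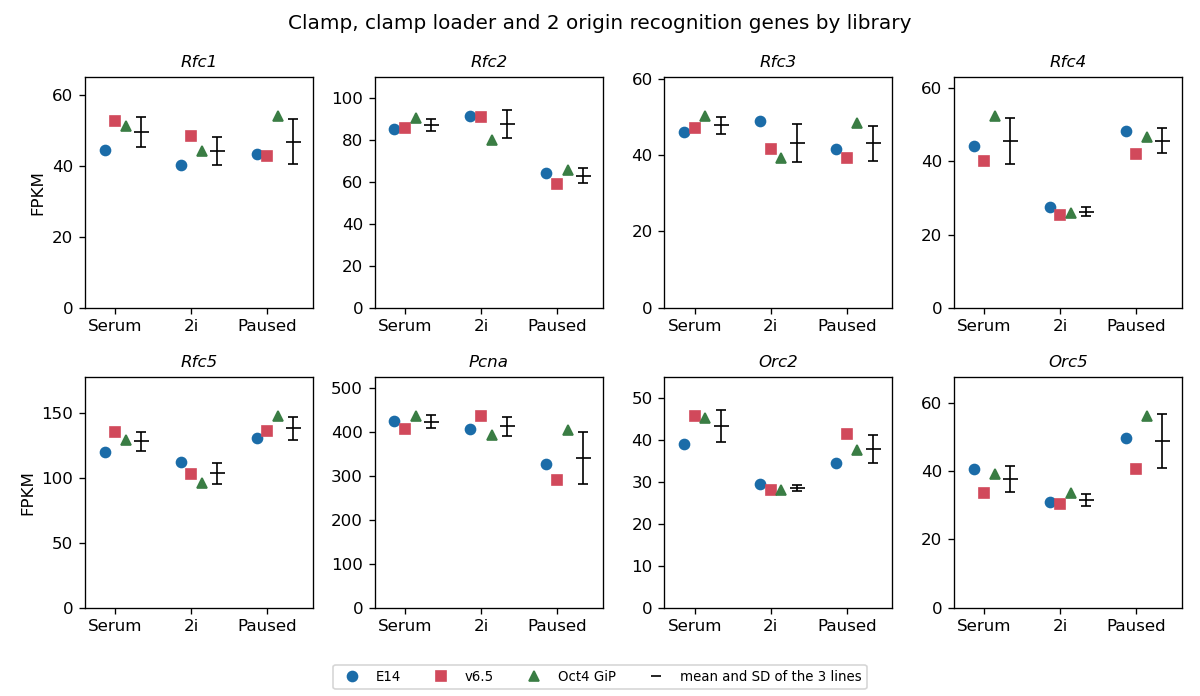
FPKM (y axis, from 0) of the clamp loader genes, Pcna, Orc2 and Orc5 in the 9 libraries by condition (x axis), with symbols for the 3 lines and the mean and SD of the 3 lines beside them. Rfc4, Rfc5 and Orc2 are lowest in 2i (26.2, 104 and 28.6 FPKM on average), while Rfc2 is lowest in Paused (63.0 FPKM).

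The single-strand binding protein differed between Paused and 2i in 2 of its 3 subunits. Rpa1, the large subunit that holds most of the DNA contacts, stood at 115, 119 and 143 FPKM in Serum, 129, 139.8 and 150.2 in 2i and 112, 108 and 98.0 in Paused, all 3 Paused libraries below the other 6. It was lower in Paused than in 2i by -0.39 ± 0.11 (limma, adjusted p = 0.0287), a call lost relative to the median gene (adjusted p = 0.0758), in the 6 libraries of those conditions alone (0.0558) and without the v6.5 or Oct4 GiP library of 2i or of Paused (adjusted p of up to 0.102). Rpa3, the small subunit, stood at 47.4, 81.8 and 61.5 FPKM in Serum, 63.7, 89.1 and 66.5 in 2i and 41.8, 66.9 and 40.8 in Paused. Its conditions overlapped because v6.5 was high in each, and within every line Paused was the lowest. The difference from 2i was -0.57 ± 0.10 with the line as a block (adjusted p = 0.00669) and was not called without it (adjusted p = 0.112). Rpa2 was called in no comparison.

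Fen1, the nuclease that trims flaps between Okazaki fragments, stood at 58.2, 64.5 and 61.7 FPKM in Serum, 68.4, 66.9 and 59.9 in 2i and 49.3, 53.1 and 55.2 in Paused. The Paused libraries lay below the other 6, and the difference from 2i was -0.30 ± 0.09 (limma, adjusted p = 0.0334). The call was lost relative to the median gene (adjusted p = 0.0671), in the 6 libraries of those conditions alone (0.0924) and without the E14 or Oct4 GiP library of Serum or the E14 or v6.5 library of 2i or of Paused (adjusted p of up to 0.135). Lig1, which seals the fragments, stood at 115, 111 and 132 FPKM in Serum, 146, 144 and 135 in 2i and 102, 99.9 and 141 in Paused. Its Oct4 GiP library in Paused stood at the level of 2i, and the difference of -0.32 ± 0.13 did not pass the test (adjusted p = 0.0765).

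The 3 lines were compared in the same fit. None of the 43 genes differed between them by limma's F test over the lines, beside 1.50% of all genes tested, and 8 had an unadjusted p under 0.05. The share of all genes at that unadjusted level was not computed. Over the conditions, the F test called 16 of the 43, beside 54.8% of all genes. Condition took the larger share of a gene's variance over the 9 libraries in 30 genes and line in 13, with medians of 59.5% for condition, 16.4% for line and 18.5% left. These shares were computed for the 43 alone, with no value for all genes beside them. Tk1 (93.2%), Rfc4 (92.1%) and Rfc2 (91.1%) had the largest shares for condition, and Orc6 (83.2%), Cdt1 (78.3%) and Mcm5 (76.4%) the largest for line.

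In 8 genes E14 had the lowest level of the lines in each of the 3 conditions, namely Orc6, Cdt1, Mcm5, Gins2, Gins3, Gins4, Pola2 and Dut. In 5 genes v6.5 had the lowest level in each (Orc5, Mcm3, Mcm6, Gins1 and Rfc4), and Oct4 GiP had it in none. The highest level in each condition was that of v6.5 in 4 genes (Orc3, Orc6, Gins2 and Rpa3) and that of E14 in 2 (Gmnn and Mcm4). The share of all genes with such an order of lines was not computed, so these counts do not set the 43 apart from other genes. In v6.5 against E14, Orc6 and Rpa3 were higher (beside 1.53% of all genes called higher) and none of the 43 was lower (beside 0.551%). There 8 of the 43 were higher and 3 lower at an unadjusted p under 0.05 in limma, beside 1240 and 1111 of the 12711 genes tested. Orc6, the least conserved subunit of its complex, averaged 36.1 ± 3.27 FPKM in E14 (SD over the 3 conditions), 58.4 ± 9.14 in v6.5 and 51.1 ± 3.38 for Oct4 GiP. The v6.5 level exceeded that of E14 by 0.67 ± 0.10 (limma, adjusted p = 0.0382). Rpa3 averaged 51.0 ± 11.4, 79.3 ± 11.3 and 56.3 ± 13.7 FPKM in the same order, with Oct4 GiP near E14, and the difference between v6.5 and E14 was 0.64 ± 0.10 (adjusted p = 0.0429). Mcm5 averaged 217 ± 15.5, 295 ± 22.8 and 295 ± 38.5 FPKM, a difference that missed the threshold (v6.5 against E14, adjusted p = 0.0779). Oct4 GiP differed from E14 and from v6.5 in none of the 43, beside 0.00787% of all genes higher and 0 lower against E14 and 0.205% higher and 0.346% lower against v6.5. At an unadjusted p under 0.05 (limma), 6 of the 43 were higher and 0 lower in Oct4 GiP than in E14, beside 916 and 730 of the 12711 genes. Against v6.5, 2 of the 43 were higher and 1 lower, beside 996 and 965 of the 12711.

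The authors deposited a second value per library, headed as normalized expression, which equals FPKM times 1 constant for each library. The constants were 3.40 to 3.74 in Serum, 2.45 to 3.17 in 2i and 1.81 to 1.99 in Paused; how they were made was not given in the sources used here. On that scale 42 of the 43 genes were lower in Paused than in Serum and none was higher, beside 76.9% and 0.378% of all genes. Pola1 was the exception, at -0.31 (limma, adjusted p = 0.0896). In 2i against Serum 18 were lower (35.7% of all genes) and Tk1 alone was higher, by 0.63 (9.76% of all genes). In Paused against 2i 33 were lower (54.5%) and none was higher (6.21%). The medians of the 43 were -1.08, -0.43 and -0.69 in the 3 comparisons, beside -0.88, -0.33 and -0.56 for all genes.

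**Figure D5:**
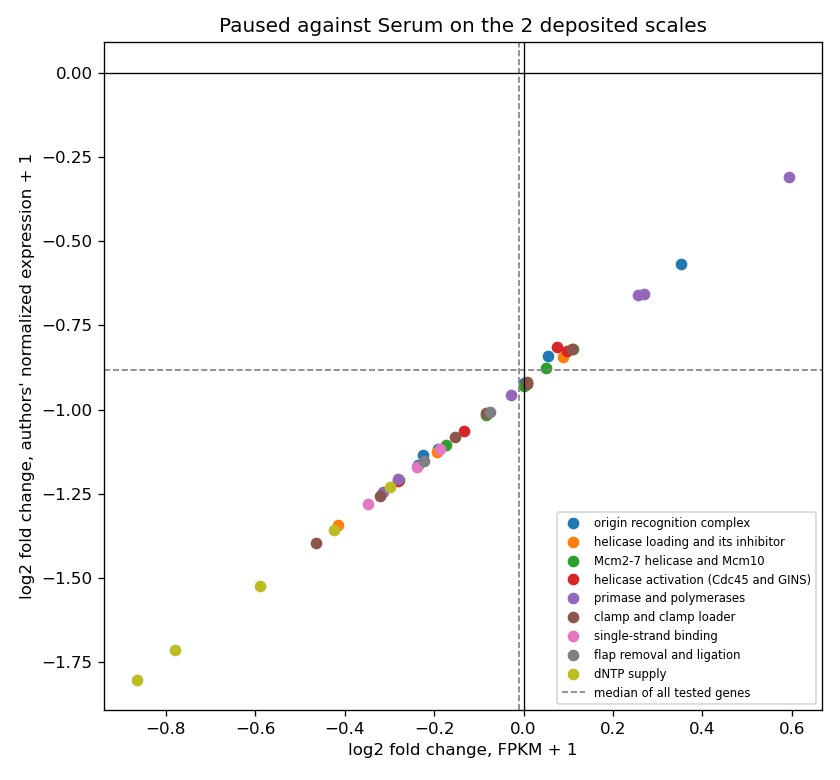
Log2 change in Paused against Serum of the 43 genes on FPKM + 1 (x axis) and on the authors' normalized expression + 1 (y axis), coloured by role; dashed lines mark the medians of all tested genes, -0.01 and -0.88. All 43 points lie below 0 on the y axis, and 16 lie above 0 on the x axis.

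Genes of the same pathways outside the 43 were read from 4 lists. Beside the counts of higher and lower genes in each list stand the shares of all genes tested, 7.64% higher and 10.5% lower in Paused against Serum, 21.7% and 18.9% in 2i against Serum, and 19.8% and 24.6% in Paused against 2i. Of 33 tested genes of forks and origins, 2 were higher and 4 lower in Paused against Serum, 6 and 5 in 2i against Serum, and 5 and 7 in Paused against 2i, with medians of 0.06, 0.04 and 0.05. On the second scale the counts were 0 and 30, 1 and 13, and 1 and 22, where the shares of all genes were 0.378% and 76.9%, 9.76% and 35.7%, and 6.21% and 54.5%. Rif1, which restrains origin firing, averaged 62.1 ± 2.41 FPKM in Serum, 48.6 ± 3.85 in 2i and 97.3 ± 11.4 in Paused. Its log2 change from Serum to Paused was 0.63 ± 0.08 (limma, adjusted p = 0.0134) and turned to -0.29 on the second scale, and it was higher in Paused than in 2i by 0.98. Dna2, a nuclease of long flaps, was lower in Paused than in Serum by -0.50, and Rnaseh2b, a subunit of the enzyme that removes ribonucleotides from DNA, by -0.47. Ticrr and Mtbp, partners in origin firing, were higher in 2i than in Serum by 1.10 and 0.73, the latter not called on the second scale (0.38, adjusted p = 0.127). Chtf8, of the alternative clamp loader, was lower in 2i than in Serum by -0.72 and higher in Paused than in 2i by 0.87, which was not called on the second scale (0.32, adjusted p = 0.202). Rnaseh2b was lower in Paused than in 2i by -0.80.

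Of 13 tested genes of dNTP supply outside the 43, 1 was higher and 2 lower in Paused against Serum (median -0.37), 2 and 3 in 2i against Serum (median -0.12), and 0 and 1 in Paused against 2i (median -0.11), beside the shares above. On the second scale the counts were 0 and 13, 0 and 8, and 0 and 11. Samhd1, which degrades dNTPs, averaged 23.0 ± 3.29 FPKM in Serum, 14.2 ± 1.15 in 2i and 13.6 ± 0.377 in Paused, a log2 change of -0.71 in Paused (limma, adjusted p = 0.0142) and -0.66 in 2i against Serum. Dctpp1, which hydrolyses modified dCTP, changed by -0.63 in Paused and by -0.70 in 2i against Serum. The mitochondrial kinase Tk2 was higher in Paused than in Serum by 0.43, which turned to -0.42 on the second scale. Rrm2b, the small reductase subunit used outside S phase, was higher in 2i than in Serum by 0.51 (0.27 and not called on the second scale, adjusted p = 0.199) and lower in Paused than in 2i by -0.78, at 2.00 ± 0.26 against 4.16 ± 0.516 FPKM.

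Of 26 E2F and G1 to S regulators, 3 were higher and 2 lower in Paused against Serum (median -0.08), 6 and 8 in 2i against Serum (median -0.27), and 7 and 5 in Paused against 2i (median 0.07), beside the same shares. On the second scale the counts were 0 and 21, 4 and 15, and 4 and 13. In Paused against Serum, Cdkn1a, the inhibitor p21, changed by -0.88, and Cdc25a, a phosphatase that activates Cdk2, by -0.67 (limma, adjusted p = 0.0223 and 0.0313). Tfdp2, a dimer partner of E2F factors, was higher there by 0.70 (adjusted p = 0.0226), which turned to -0.17 on the second scale. In 2i against Serum, the Cdk inhibitor gene Cdkn1c changed by -4.03, cyclin D2 (Ccnd2) by -2.22 and Cdkn1a by 2.105. In Paused against 2i the changes of these 3 were 3.45, 2.53 and -2.98. The spread of Ccnd2 within a condition was wide, at 7.32 ± 5.48 FPKM in Serum and 15.2 ± 18.9 in Paused.

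Of 23 mitosis genes, 6 were higher and 1 lower in Paused against Serum (median 0.09), 0 and 7 in 2i against Serum (median -0.22), and 14 and 1 in Paused against 2i (median 0.47), beside the same shares. On the second scale the counts were 0 and 20, 0 and 20, and 1 and 5. Mki67, the proliferation antigen, stood at 35.5, 37.7 and 30.6 FPKM in Serum, 31.2, 29.9 and 29.2 in 2i and 48.6, 53.3 and 64.2 in Paused. All 3 Paused libraries lay above the other 6. The log2 change against Serum was 0.66 (limma, adjusted p = 0.0249), opposite in sign to that of Tk1 and Rrm2 on FPKM, and on the second scale it turned to -0.25, the sign of Tk1 and Rrm2. Top2a, which untangles chromosomes, and Cenpe, a kinetochore motor, were higher in Paused than in Serum by 0.60 and 0.55, which turned to -0.33 and -0.36 on the second scale. In 2i against Serum the anaphase activator Cdc20 changed by -0.99, the kinase Plk1 by -0.56 and the kinetochore gene Nuf2 by -0.53. In Paused against 2i the kinetochore gene Cenpf changed by 1.17, Mki67 by 0.85 and Top2a by 0.83; the last 2 were not called on the second scale (0.30 and 0.27).

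Markers of other cell types were read beside these values. The 10 embryonic stem cell markers summed to 4434 to 5874 FPKM in Serum, 4137 to 4868 in 2i and 6390 to 6875 in Paused, and each averaged 1 FPKM or more in every condition. The 10 trophoblast markers summed to 67.5 to 326 FPKM in Serum, 50.03 to 75.1 in 2i and 29.3 to 51.5 in Paused, with 8, 4 and 4 of the 10 at a mean of 1 FPKM or more; the defining factor Cdx2 averaged 1.65, 0.457 and 0.450 FPKM. The 10 fibroblast feeder markers summed to 33.3 to 138.5 FPKM in Serum, 4.62 to 6.01 in 2i and 8.40 to 14.95 in Paused (5, 2 and 4 of the 10 at 1 FPKM or more), and Lum was listed at 0 in each Serum library. The 8 endoderm markers summed to 7.54 to 15.9, 14.7 to 19.1 and 13.9 to 17.6 FPKM, with 2 of the 8 at 1 FPKM or more in each condition. The feeder sum was thus higher in each Serum library than in any other library. Tagln, a contractile gene, gave most of it, at 114, 22.5 and 55.8 FPKM in Serum. The trophoblast sums of Serum lay above those of Paused and overlapped those of 2i, with Krt8 at 161, 24.4 and 62.6 FPKM in Serum. Between 2i and Serum the trophoblast markers split in direction. Tfap2c (42.9 against 29.9 FPKM), Eomes (4.10 against 2.13), Gata3 and Elf5 averaged higher in 2i, and the others averaged lower. The part of these markers in the differences of the replication genes was not tested.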

How the data were processed

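RNA was sequenced from 9 samples (3 conditions by 3 cell lines); the group and line of each came from its labels, and the line name pairs samples across conditions. Per the labels' protocols, each library used 250 ng of total RNA, with ERCC spike-in RNA and a directional kit. The authors deposited 1 table with 9 FPKM columns, made with Cuffnorm on mm10 per the submitters' processing notes (no version given), and 9 columns of normalized expression, a deposited signal equal to FPKM times 1 constant per library as read from the values. All columns were matched to a sample. Aligner, annotation and strand setting were not given in the sources used here. Because the table holds no counts, depth is unknown and counting error cannot be set; summed FPKM ran from 1451983 to 2133969. Of 29801 rows, 5644 without a gene name (52.8% to 64.0% of a library's summed FPKM) and 113 identical repeats were left out.

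The 12711 genes that reached FPKM 1 in 3 of the 9 libraries were fitted by limma-trend (limma 3.58.1, R 4.3.3) on log2(FPKM + 1), a scale that understates changes of low genes, with condition and line as terms, with Benjamini-Hochberg adjustment over all of them and a threshold of 0.05. Fold changes are ± SE of that fit and levels are mean ± SD (n = 3). The block is used because same-line libraries are the same labelled line. Their deviations from condition means correlated across genes at -0.001 to 0.401, against -0.243 to 0.094 between lines, so these ranges overlap. Within a line, Serum with Paused gave 0.338 to 0.401, and pairs with 2i gave only -0.001 to 0.154. Libraries named as apart (do not overlap) have all 3 values of one condition above all 3 of the other. Alternatives were the pseudocount, the filter, the second deposited scale, centring on the median gene, no block, no trend, 6 libraries, and leaving out libraries or lines. The fit was tested on simulated data. Gene positions are from GENCODE M21 (GRCm38), the build named in the notes. Of the 43 genes, 16 share exon bases with another annotated gene, and these are uncertain without strand. Besides Rfc4, they include the called genes Tk1 (shared with Afmid), Orc2 (Nif3l1), Rfc2 (Lat2), Rfc5 (Wsb2), Fen1 (Tmem258) and Pole (Gm15792), on opposite strands. Orc5 (Gm15421) and Rpa1 (Gm47300) share bases on the same strand, so strand would not separate them.

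The genes given per library are, in each role, the one with the largest change in each comparison, a fixed panel (Mcm2, Mcm7, Cdc6, Cdt1, Gmnn, Pcna, the dNTP genes, Mki67) and, chosen after their values were seen, the remaining called genes. From each list outside the 43, up to 3 genes with the largest changes among those called are named per comparison. The 43 genes, the lists, markers and tests were chosen with earlier results of these data known.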

Additional observations from a re-analysis of the deposited data

How the results depend on the processing

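Of the 29 calls on the 43 genes over the 3 comparisons, a pseudocount of 0.1 and a filter of FPKM 5 kept 29 each, centring on the median gene 27, no filter, no trend and no block 25 each, the 6 libraries of a comparison 22 and the authors' normalized columns 21. With no filter, no trend or no replicate block, 1 gene in place of 2 was called higher in Paused against Serum; the block by line is the labelled pairing, and dropping it ended the calls on Orc5, Gins1 and Tyms there and on Rpa3 in Paused against 2i, and no other. In the 6 libraries of Paused and 2i, 3 were called higher, and centring gave 9 lower in 2i against Serum. The shares of all genes called in those fits are not given. On the authors' columns, 0 were higher and 42 lower in Paused against Serum, 18 lower in 2i against Serum, and 0 higher and 33 lower in Paused against 2i. Leaving out 1 library, or all libraries of 1 line, gave 0 to 2 higher and 0 to 10 lower in Paused against Serum, 1 to 3 higher and 1 to 5 lower in 2i against Serum, and 1 to 6 higher and 4 to 11 lower in Paused against 2i. The low ends were reached without any Serum or Paused library or any line for the first, and without the Oct4 GiP line for the lower count in 2i against Serum and both counts in Paused against 2i; without a line, 4 to 7 genes of the whole table were called in Paused against Serum. The line test called 0 of the 43 under every alternative run. The cause of these changes was not tested, other than that fewer libraries enter the fits.

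The authors' columns also turned signs. In Paused against Serum they gave Orc1 -0.92, Orc3 -0.84, Orc5 -0.57, Cdt1 -0.84, Mcm2 -0.92, Mcm6 -0.93, Mcm7 -0.82, Mcm10 -0.87, Cdc45 -0.83, Gins2 -0.92, Gins3 -0.81, Pola1 -0.31, Pold1 -0.66, Pole -0.66, Rfc4 -0.92 and Rfc5 -0.82. In Paused against 2i they gave, among genes called on either scale, Orc2 -0.16, Orc4 -0.49, Cdt1 -0.50, Mcm2 -0.54, Mcm5 -0.55, Mcm7 -0.38, Gins4 -0.55, Pold1 -0.22, Pole -0.12, Rfc1 -0.48 and Rfc5 -0.15. In all, the sign turned from above 0 to below it for 16 genes in Paused against Serum, each given here, for 14 in 2i against Serum, none of them called on either scale, and for 15 in Paused against 2i, of which 11 are given and 4 (Orc3, Mcm6, Mcm10 and Pola1) were called on neither scale. These columns differ from FPKM by the constants alone.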
